A study of Mus musculus with 10 samples.

Results

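The insulin-like growth factor (IGF) family described here comprises 10 of the 35275 genes listed for each tumor, the ligands *Igf1* and *Igf2*, the receptors *Igf1r* and *Igf2r*, and the binding proteins *Igfbp2* to *Igfbp7*. They were taken by gene symbol, and all 10 were found in every table and passed the filter on low counts. The family was chosen by the genotype difference of *Igfbp5*, whose p ranked 3 among the 15176 genes tested. Its difference between the genotypes is therefore given as a description, with no test.

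RNA was measured by RNA-seq in 10 mouse skin tumors, 5 labelled LDHA-/- (here *Ldha*-null, named null 1 to null 5) and 5 labelled wild type (named WT 1 to WT 5), where *Ldha* encodes the A subunit of lactate dehydrogenase. The study drove squamous cell carcinoma from hair follicle stem cells with *K15CrePR* or *Lgr5CreER*, switched on by mifepristone or tamoxifen, acting on alleles that include *p53* fl/fl, and *Ldha* fl/fl in the deleted animals. It also used DMBA/TPA, a chemical carcinogen followed by a promoter. Which of these models gave the sequenced tumors is not stated in the labels or methods. The methods give the same postnatal age at the start of treatment for each model, with the harvest time set by model. The strains were of mixed C57BL6/FVB background. Some tumors in deletion mice were mosaic for Ldh activity. The labels name squamous carcinoma cells as the source, while RNA was extracted from fresh tumors with no sorting described. In such bulk samples, fewer cells of a type and less RNA per cell cannot be told apart.

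IGF-I and IGF-II act through the IGF-I receptor, a tyrosine kinase that feeds the PI3K and Akt pathway, while the IGF-II receptor, also the mannose 6-phosphate receptor, takes up IGF-II and carries it to lysosomes. Binding proteins hold IGFs outside the cell, where they can withhold them from the receptor or serve as a store that proteases release. In skin, fibroblasts supply much of the IGF and keratinocytes respond to it.

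Total counts were 15052860 to 17398949 per tumor in the *Ldha*-null group and 12969508 to 17694201 in the wild-type group. Null 1, null 3 and WT 5 stood apart on the first principal component, which held 43.4% of the variance. All 12 skeletal muscle markers were present in null 1 and held 13.6% of its counts, with 0.032% or less in each other tumor. The summed FPKM of 10 fibroblast and stroma markers was 766 in null 1 and 3218 to 14453 in the rest, and that of 10 keratinocyte markers was 34739 and 37062 in null 3 and WT 5 and at most 5471 elsewhere, with 252 in WT 1 and no marker at 0 in any tumor. The part of this tissue content in the results below was not tested, and the log2 fold changes of the members are also given without these 3 tumors. *Ldha* RNA ranged from 246 to 1883 FPKM in the *Ldha*-null and from 340 to 2824 FPKM in the wild-type group, so it did not separate the labels.

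The promoters of the most and the least abundant members by mean level are shown first, *Igfbp4* and *Igfbp5*. Both stretches are from RefSeq (build GRCm38.p6) and stop 1 base before the gene start that the tables list. *Igfbp4* lies at chr11:99040994-99041243 on the plus strand and *Igfbp5* at chr1:72874885-72875115 on the minus strand, and capitals mark TATAAA in the first and TTTAAA in the second.
Igfbp4: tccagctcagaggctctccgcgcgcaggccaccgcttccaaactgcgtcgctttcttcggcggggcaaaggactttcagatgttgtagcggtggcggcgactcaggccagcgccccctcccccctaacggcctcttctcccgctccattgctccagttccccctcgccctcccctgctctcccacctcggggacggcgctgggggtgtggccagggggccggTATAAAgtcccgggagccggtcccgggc
Igfbp5: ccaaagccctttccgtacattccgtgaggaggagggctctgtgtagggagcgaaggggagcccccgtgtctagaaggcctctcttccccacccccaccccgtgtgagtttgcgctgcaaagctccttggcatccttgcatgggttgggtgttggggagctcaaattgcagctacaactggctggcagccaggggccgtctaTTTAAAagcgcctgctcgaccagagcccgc
The motif began 28 bases before the gene start in *Igfbp4* and 30 bases before it in *Igfbp5*. Searched on both strands, TATAAA was present in 13.6% and TTTAAA in 13.2% of the 32851 promoters of the table, taken as 300-base windows. The *Igfbp4* stretch of 250 bases held 22 CpG and the *Igfbp5* stretch of 231 bases held 10. A match is a description of the letters and not of a site in use.

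Levels are given as deposited FPKM, which scales a gene's fragments by library size and gene length and so allows genes to be compared within a tumor. *Igfbp4* RNA was the highest of the family in 10 of 10 tumors, with a mean of 2717 ± 601 FPKM (SEM, n = 10) that ranked 29 among all genes. *Igfbp6* (341 ± 108) and *Igfbp7* (304 ± 42.6) came next and could not be ordered, since *Igfbp6* was the higher of them in 5 of 10 tumors. Lower means followed for *Igfbp2* (95.8 ± 54.0), *Igfbp3* (84.4 ± 12.95), *Igf2* (73.4 ± 25.9) and *Igf2r* (50.7 ± 6.04). The first of each neighbouring pair in this stretch was the higher in 2, 7 and 4 of 10 tumors. *Igfbp2* thus lay below *Igfbp3* in most tumors, with medians of 29.0 and 73.9 FPKM, and WT 2, at 568 FPKM, raised its mean. *Igf2* was not separated from *Igfbp3* or from *Igf2r* beyond their spread, while *Igfbp3* lay above *Igf2r* in 9 of 10. *Igf1* (28.7 ± 5.37) lay below *Igf2r* in 9 of 10 tumors and above *Igf1r* (8.31 ± 1.19) in 10 of 10. *Igfbp5* (7.04 ± 3.92 FPKM) had the lowest mean and lay below *Igf1r* in 8 of 10 tumors. The length behind FPKM was shorter than the listed gene length by more than 2 times for 4 members, *Igf1*, *Igf2*, *Igf2r* and *Igfbp4*. With the listed length *Igfbp4* was the highest member in 8 of 10 tumors, and *Igf1* lay above *Igf1r* in 5 of 10.

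**Figure D1:**
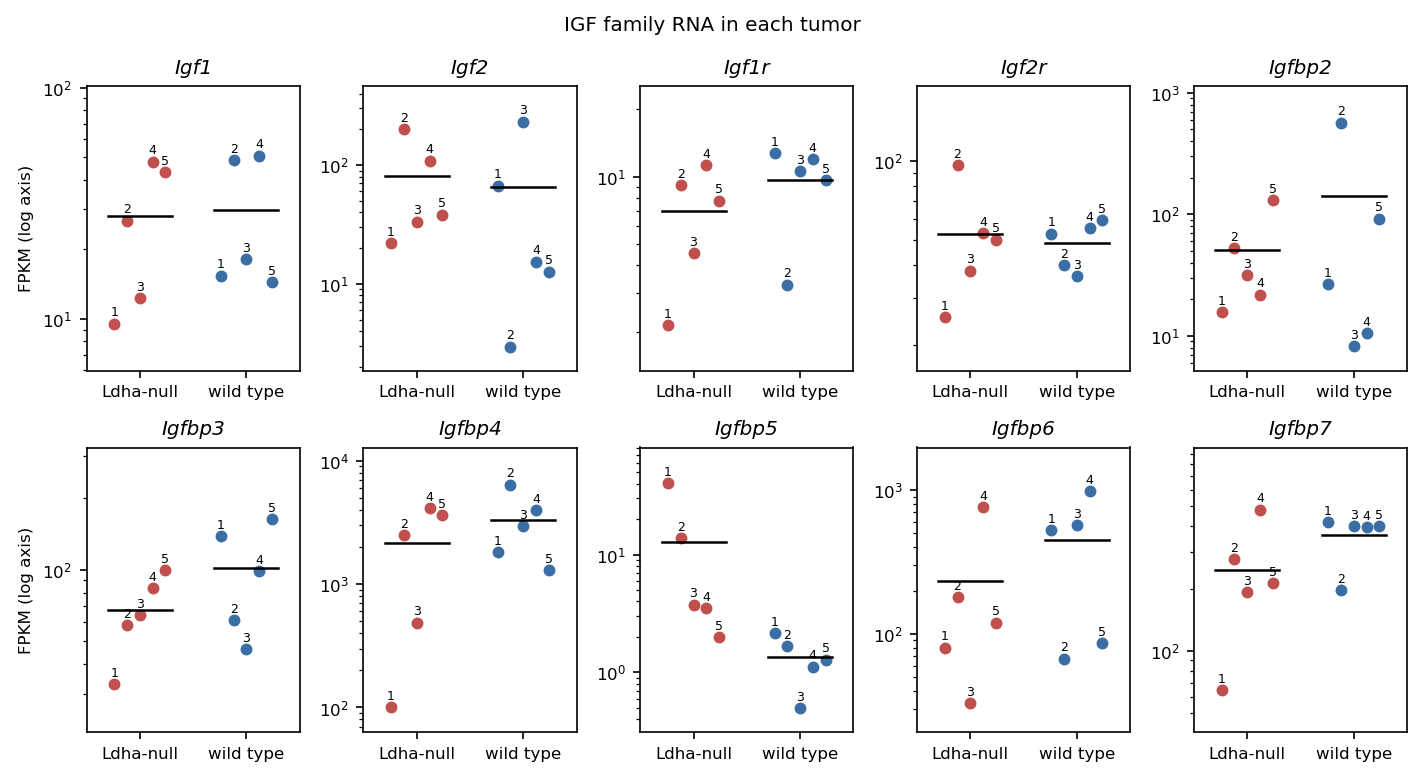
FPKM of each of the 10 members on a log axis, with 1 point per tumor numbered by tumor, *Ldha*-null in red and wild type in blue, with each mean of 5 tumors drawn as a black line; each panel has its own axis range. The groups overlap in every panel, and 4 of 5 *Ldha*-null tumors lie above all wild-type tumors for *Igfbp5*.

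*Igf1* (ENSMUSG00000020053, chromosome 10, 87858265 to 87937042, mm10 as all positions in the tables), the growth hormone-responsive ligand, was at 9.54, 26.6, 12.3, 47.9 and 43.1 FPKM in null 1 to 5. It was at 15.4, 48.5, 18.1, 50.9 and 14.4 FPKM in WT 1 to 5. Tumors with over 40 FPKM and tumors with under 20 FPKM occurred under both labels, and the groups overlapped across most of their range. The fitted log2 fold change of *Ldha*-null over wild type was -0.05 (95% interval -1.06 to 0.97), and a difference of up to about 2-fold either way was within the spread of these tumors. Its sign changed with the tumors used, at 0.15 without null 1, null 3 and WT 5.

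*Igf2* (ENSMUSG00000048583, chromosome 7, 142650766 to 142666816), the imprinted fetal ligand that is expressed from the paternal copy, varied far more. It stood at 22.01, 202, 33.5, 109 and 38.2 FPKM in null 1 to 5 and at 67.1, 2.96, 232, 15.4 and 12.7 FPKM in WT 1 to 5. Wild-type tumors held both the lowest and the highest value, a 78.2-fold range, so the *Ldha*-null tumors all lay within the wild-type range. The SD of log2 CPM was 2.23 over the 7 other tumors once null 1, null 3 and WT 5 were left out, which exceeded that of 99.6% of tested genes, while the median gene had 0.41. The log2 fold change was 0.36 (95% interval -1.80 to 2.52), moving to -0.24 when null 2 and to 1.78 when WT 3 was left out, and it was 0.52 over those 7 tumors.

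Which ligand prevailed differed between tumors. The ratio of *Igf2* to *Igf1* FPKM was 12.8 in WT 3, 7.58 in null 2 and 4.35 in WT 1. Null 1, 3 and 4 had ratios of 2.31, 2.73 and 2.27. *Igf1* was the higher ligand in null 5 and WT 2, 4 and 5, with ratios of 0.887, 0.0611, 0.302 and 0.880. With the listed lengths the ratios of null 5 and WT 5 rose to 1.35 and 1.34, so only WT 2 and 4 held more *Igf1* on both length scales.

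*H19*, the maternally expressed noncoding RNA 72622 bases from *Igf2*, was the most abundant of the imprinted genes listed. It was at 177, 3477, 529, 750 and 142 FPKM in null 1 to 5 and at 449, 6.71, 561, 434 and 112 FPKM in WT 1 to 5. *H19* and *Igf2* were both at their lowest in WT 2 and both high in null 2 and WT 3. WT 1 and 4 had near-equal *H19*, at 449 and 434 FPKM, and *Igf2* of 67.1 and 15.4 FPKM. For *H19*, the log2 fold change was 1.74 (95% interval -0.58 to 4.06), within the spread of the tumors.

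*Igf1r* (ENSMUSG00000005533, chromosome 7, 67952859 to 68226780), the signalling receptor, was at 2.15, 9.15, 4.53, 11.3 and 7.80 FPKM in null 1 to 5. In WT 1 to 5 it was at 12.7, 3.28, 10.6, 11.9 and 9.65 FPKM. Null 1 and WT 2 were the lowest of their groups, and WT 2 lay below all other wild-type tumors by a wide gap. Between the genotypes its log2 fold change was -0.43 (95% interval -1.29 to 0.42), and -0.11 over the 7 tumors.

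*Igf2r* (ENSMUSG00000023830, chromosome 17, 12682406 to 12769664), the scavenging receptor, was the steadiest member, with a 3.79-fold range over the 10 tumors. It was at 25.4, 96.2, 38.2, 53.2 and 50.1 FPKM in null 1 to 5 and at 52.8, 40.2, 36.5, 55.4 and 59.4 FPKM in WT 1 to 5. Null 2 lay above the wild-type range. Null 1 lay below it in FPKM but within it on the TMM-scaled log2 CPM used for the test, at 6.81 against 6.43 to 7.33. Its log2 fold change of 0.18 (95% interval -0.44 to 0.80) became -0.08 without null 2 and 0.46 over the 7 tumors. *Airn*, an antisense RNA that overlaps *Igf2r*, averaged 17.3 FPKM, and without strand information reads in the overlap cannot be assigned to either gene.

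Among the binding proteins, *Igfbp4* (ENSMUSG00000017493, chromosome 11, 99041244 to 99054392), which *Pappa* and related proteases cleave, was at 100, 2495, 485, 4128 and 3614 FPKM in null 1 to 5. It was at 1816, 6377, 2923, 3943 and 1293 FPKM in WT 1 to 5. Null 1 and 3 lay below every wild-type tumor and the other *Ldha*-null tumors within the wild-type range. Its 63.5-fold range in FPKM over the 10 tumors narrowed to 3.51-fold over the 7 without null 1, null 3 and WT 5. On the TMM-scaled log2 CPM used for the test, the 10 tumors spanned a smaller range, from 7.68 in null 1 to 12.73 in WT 2. The log2 fold change was -0.64 (95% interval -2.29 to 0.9999), and -0.21 over those 7. The summed fibroblast and stroma markers were also lowest in null 1, null 3 and WT 5, at 766, 3218 and 5184 FPKM, and their part in the *Igfbp4* level was not tested.

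*Igfbp5* (ENSMUSG00000026185, chromosome 1, 72857932 to 72874884, minus strand), which binds IGFs and matrix and is well known from muscle differentiation, was at 40.6, 13.8, 3.76, 3.53 and 2.003 FPKM in null 1 to 5. In WT 1 to 5 it was at 2.15, 1.67, 0.495, 1.12 and 1.28 FPKM. The counts behind these values were 3635, 1224, 291, 301 and 170 in the *Ldha*-null tumors and 190, 126, 33, 102 and 99 in the wild-type tumors. Null 1 to 4 lay above every wild-type tumor, null 5 lay just below WT 1, and so the groups overlapped. The means were 12.7 ± 7.28 and 1.34 ± 0.276 FPKM (SEM, n = 5 each), and 5.77 ± 2.70 FPKM for the 4 *Ldha*-null tumors without tumor 1. The fitted log2 fold change of 3.86 became 2.09 without null 1. Over the 7 tumors without null 1, null 3 and WT 5 it was 2.20.

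The summed FPKM of the skeletal muscle markers was 114110 in null 1 and 54.7 to 294 in the other 9 tumors. Null 2, with the next highest *Igfbp5*, had a muscle sum of 145, and WT 1 had 294 with *Igfbp5* at 2.15 FPKM. The adipocyte marker sum was 2177 in null 1 and 29.6 in null 2, and null 3 and WT 5 had 1009 and 956 with *Igfbp5* at 3.76 and 1.28 FPKM. In null 2 to 5, *Igfbp5* varied 6.88-fold at muscle sums of 54.9 to 145 FPKM, a range that lies far below the sum of null 1. The satellite cell and myoblast marker sum was 3036 FPKM in null 1 and 3.52 to 27.9 FPKM elsewhere, and *Spt1*, a salivary protein, was at 501 FPKM in null 1 and at most 0.949 FPKM elsewhere. The part of these tissues in the *Igfbp5* level was not tested.

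*Igfbp2* (ENSMUSG00000039323, chromosome 1, 72824503 to 72852474, plus strand), an IGF-II-preferring binding protein, is the neighbour of *Igfbp5*, with 5457 bases between the genes. It was at 15.7, 53.0, 31.4, 21.8 and 131 FPKM in null 1 to 5 and at 26.6, 568, 8.23, 10.5 and 92.0 FPKM in WT 1 to 5. WT 2 stood highest and null 5 next, and the wild-type range enclosed all *Ldha*-null tumors. *Igfbp2* and *Igfbp5* were highest in different tumors and their r over the 7 tumors was 0.26 (rho = 0.39, exact permutation p = 0.558 for r and 0.396 for rho, adjusted p = 0.874 for r). Without WT 2 and null 5, the farthest from the median of *Igfbp2*, r was 0.96 over the 5 tumors left, so the value depends on those tumors. The log2 fold change of *Igfbp2* was -1.44 (95% interval -3.79 to 0.91), and it was 0.47 without WT 2 and -1.22 over the 7 tumors.

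*Igfbp6* (ENSMUSG00000023046, chromosome 15, 102144362 to 102149511), which prefers IGF-II strongly, was at 80.2, 180, 33.1, 758 and 120 FPKM in null 1 to 5. It was at 528, 67.2, 572, 985 and 86.3 FPKM in WT 1 to 5. Null 4 and WT 1, 3 and 4 held 528 to 985 FPKM, while the other 6 tumors lay at 180 FPKM or less, under both labels. A log2 fold change of -0.90 was fitted (95% interval -2.82 to 1.014), and one of -0.69 over the 7 tumors. Without null 4 it was -1.94 and without WT 4 -0.35.

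*Igfbp7* (ENSMUSG00000036256, chromosome 5, 77349240 to 77408045), a vessel and matrix protein that binds IGFs weakly, was at 64.4, 279, 192, 483 and 212 FPKM in null 1 to 5. In WT 1 to 5 it was at 419, 197, 401, 397 and 401 FPKM. WT 2 lay apart from the other 4 wild-type tumors, and null 4 was the highest of all. Fitted by genotype, its log2 fold change was -0.53 (95% interval -1.37 to 0.31), and -0.19 over the 7 tumors.

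*Igfbp3* (ENSMUSG00000020427, chromosome 11, 7206086 to 7213923), the main IGF carrier of serum, was at 33.1 to 99.2 FPKM (median 64.1) in *Ldha*-null and at 46.4 to 163 FPKM (median 98.1) in wild-type tumors. Its log2 fold change was -0.51 (95% interval -1.32 to 0.29), -0.23 without WT 5 and -0.18 over the 7 tumors. *Igfbp1*, its neighbour at a distance of 3539 bases and the remaining classical binding protein, was too low to be tested.

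**Figure D2:**
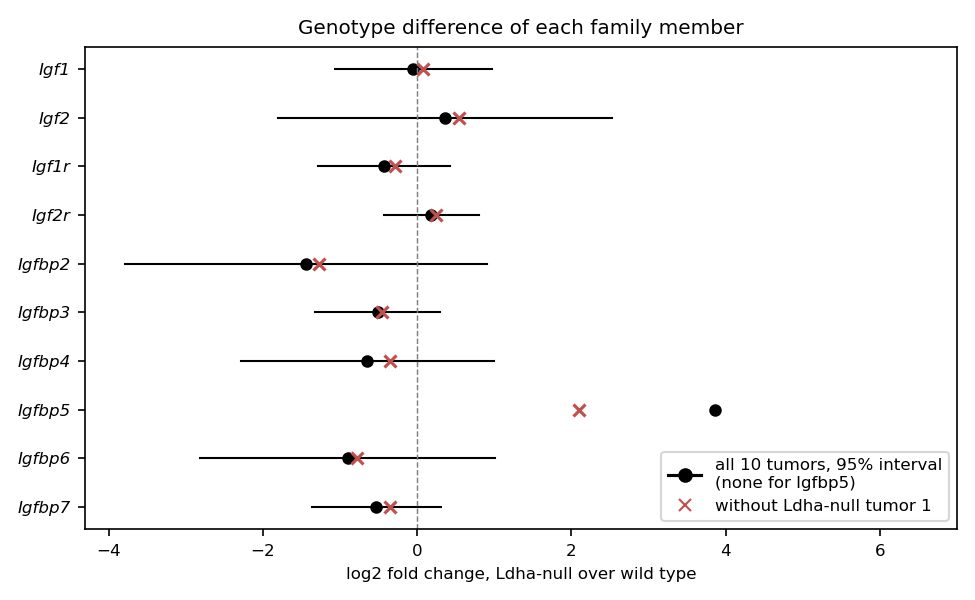
Fitted log2 fold change of *Ldha*-null over wild type for each member (black points, 5 tumors per group) with its 95% interval (lines, not drawn for *Igfbp5*), and the value without null 1 (red crosses); the dashed line marks no difference. *Igfbp5*, chosen for this difference, moves from 3.86 to 2.09, and the intervals of the other 9 members span 0.

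Apart from *Igfbp5*, 0 of 9 members passed edgeR's quasi-likelihood test, with an adjusted p of 0.999 for each over the 15176 genes tested, and 0 had an unadjusted p under 0.05. Across all genes 0% passed, 3.96% had an unadjusted p under 0.05 (3.56% higher and 0.395% lower in *Ldha*-null), and DESeq2 called 0.00695%. By sign, 2 of the 9 were above 0 and 7 below, with 52.8% of all tested genes above 0 and 47.2% below. Their median was -0.51 against 0.02 over all genes, -0.35 against -0.01 without null 1, and -0.18 against -0.0020 over the 7 tumors. Of the 10 members, 0 had groups that did not overlap, as did 0.185% of tested genes. The 95% intervals of 8 of the 9, all but *Igf2r*, reached beyond 2-fold in at least 1 direction. A 2-fold lower level in *Ldha*-null lay within each of these 8 intervals. A 2-fold higher level lay within those of *Igf2* and *Igfbp6* only.

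The make-up of the binding protein pool differed between tumors. *Igfbp4* supplied from 30.0% (null 1) to 87.7% (WT 2) of the summed *Igfbp2* to *Igfbp7* FPKM. *Igfbp5* supplied 12.1% in null 1 and at most 0.464% elsewhere. *Igfbp6* supplied 23.99% in null 1, 18.1% in WT 4 and 18.04% in WT 1, against 0.924% in WT 2, where *Igfbp2* reached 7.82%. Summed binding protein FPKM exceeded summed ligand FPKM 10.6-fold in null 1 and 141-fold in WT 2, the lowest and highest ratios. With the listed lengths the share of *Igfbp4* was 12.5% in null 1 and 71.8% in WT 2, again the lowest and highest. On those lengths the ratio of binding proteins to ligands was lowest in null 2, not null 1, and still highest in WT 2.

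**Figure D3:**
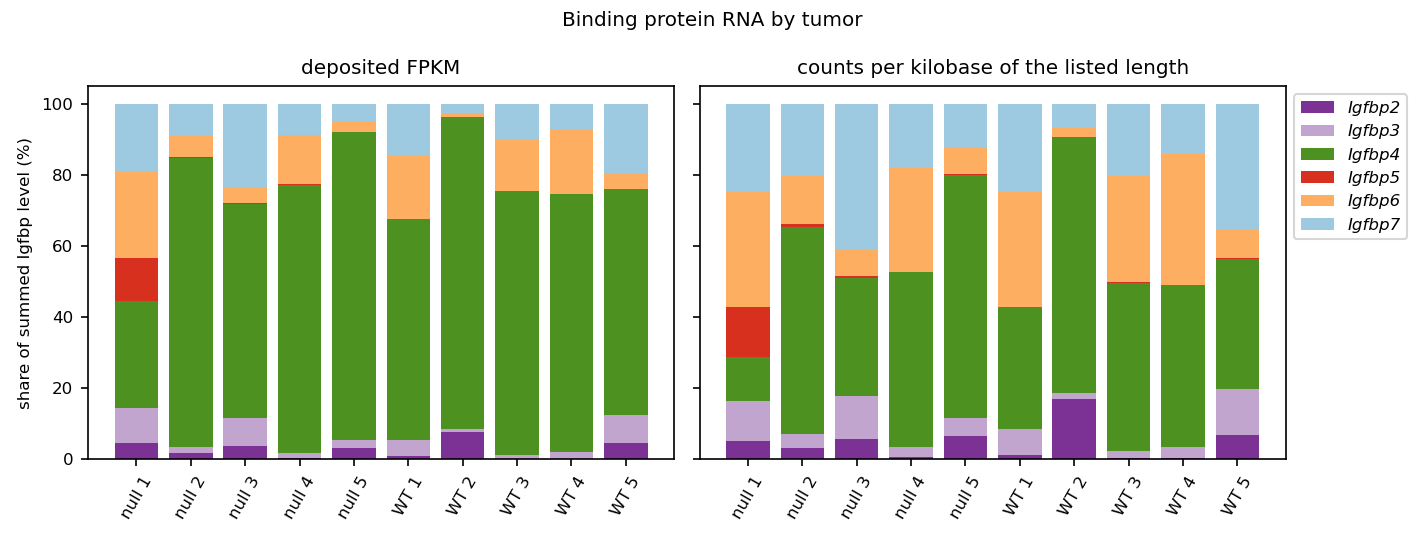
Share of the summed *Igfbp2* to *Igfbp7* level taken by each gene (%, stacked bars) in each tumor, from deposited FPKM on the left and from counts per kilobase of the listed gene length on the right. *Igfbp4* is the largest share in every tumor on the left, and *Igfbp5* is visible mainly in null 1, at 12.1% on the left.

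Covariation was measured on log2 CPM over the 7 tumors without null 1, null 3 and WT 5, since a coefficient over all 10 would mix separate groups of tumors. These 7 held 3 *Ldha*-null and 4 wild-type tumors, too few for a coefficient within each label. Of the 45 pairs of members, 24 had a positive and 21 a negative r, 8 had an unadjusted p under 0.05 where 5% of the pairs is 2.25, and 6 passed at an adjusted p under 0.05 (two-sided exact permutation test over 5040 pairings, Benjamini-Hochberg over the 45 pairs).

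All 6 pairs joined *Igf1r*, *Igfbp2*, *Igfbp6* and *Igfbp7*. *Igf1r*, *Igfbp6* and *Igfbp7* varied together and *Igfbp2* opposite to them. For *Igfbp6* with *Igfbp7*, r was 0.96 and rho 0.89 (exact permutation p = 0.00317 and 0.0123, adjusted p = 0.0476 for r). For *Igf1r*, r was 0.88 with *Igfbp6* (rho = 0.89, exact permutation p = 0.00159 and 0.0123, adjusted p = 0.0402 for r). With *Igfbp7* it was 0.84 (rho = 0.86, exact permutation p = 0.00575 and 0.0238, adjusted p = 0.0476 for r). *Igfbp2* had r of -0.93 with *Igfbp6* (rho = -0.89, exact permutation p = 0.00179 and 0.0123, adjusted p = 0.0402 for r). With *Igf1r* it was -0.93 (rho = -0.75, exact permutation p = 0.00496 and 0.0663, adjusted p = 0.0476 for r). With *Igfbp7* it was -0.89 (rho = -0.71, exact permutation p = 0.00635 and 0.0881, adjusted p = 0.0476 for r).

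WT 2 and null 5 lay at the ends of this pattern. They had the 2 highest *Igfbp2* levels of the 7, 568 and 131 FPKM, and the 2 lowest of *Igfbp6*, 67.2 and 120 FPKM, of *Igf1r*, 3.28 and 7.80 FPKM, and of *Igfbp7*, 197 and 212 FPKM. Without these 2 tumors, which lay farthest from the median, r was 0.91 for *Igfbp6* with *Igfbp7*, 0.84 and 0.75 for *Igf1r* with *Igfbp6* and *Igfbp7*, and -0.78, -0.53 and -0.63 for *Igfbp2* with *Igfbp6*, *Igf1r* and *Igfbp7*. With 5 tumors the smallest exact permutation p is 0.00833, too large for a few pairs to pass after adjustment, so the test then says nothing. When any 1 of the 7 was left out (smallest exact permutation p = 0.00139) or when rho was used, 0 pairs passed, although the sign of all 6 remained.

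Other genes moved with these levels. The summed FPKM of the salivary gland markers had the same order over the 7 tumors as *Igfbp6*, at 6.6 in WT 2, 11.6 in null 5, 89.1 in null 2, 205 in WT 1, 220 in WT 3, 828 in null 4 and 1484 in WT 4. From 2 to 5 of those 7 markers were at 0 in each tumor, and *Aqp5*, a water channel of glands named after its values were seen, made up most of the sum, with 1483 FPKM in WT 4 and 4.14 FPKM in WT 2. The adipocyte marker sum was highest in null 5 and WT 2, at 210 and 118 FPKM, and at most 38.8 FPKM in the other 5. The fibroblast and stroma sum was lowest in null 5 and WT 2, at 8220 and 9265 FPKM. It was 10673 in null 2, 11294 in WT 3, 13079 in WT 1, 13158 in null 4 and 14453 in WT 4. The keratinocyte sum was 3567 in WT 2, 2531 in null 2 and 1988 in null 5, and at most 959 FPKM in the others. The part of gland, fat, stroma or keratinocyte content in the covariation was not tested.

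**Figure D4:**
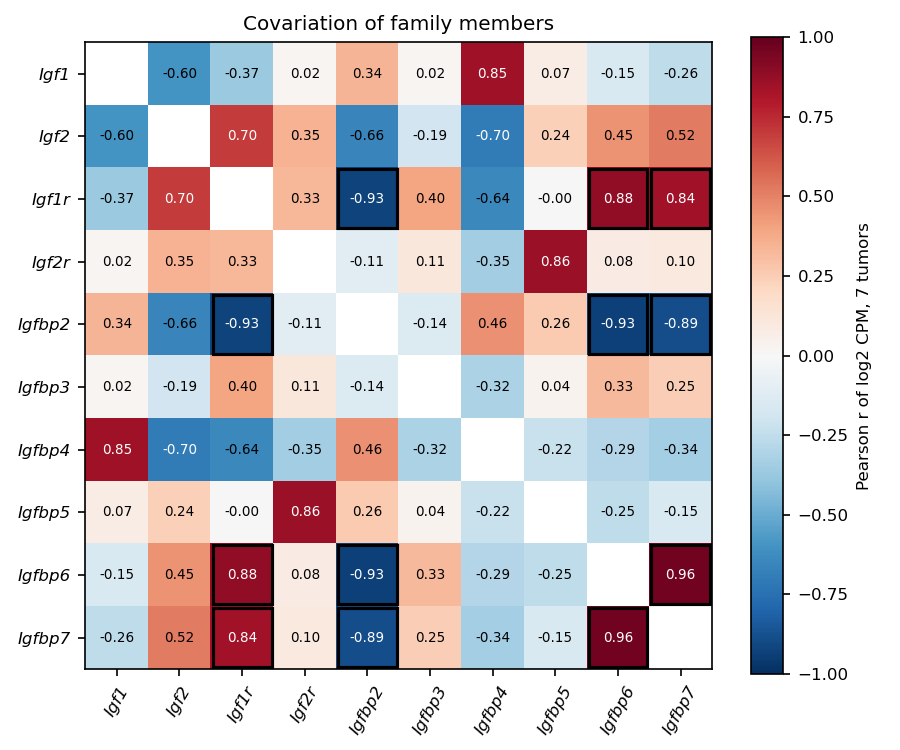
Pearson r of log2 CPM for each pair of members over the 7 tumors without null 1, null 3 and WT 5, from -1 (blue) to 1 (red), with the 6 pairs at an adjusted p under 0.05 outlined. All outlined cells join *Igf1r*, *Igfbp2*, *Igfbp6* and *Igfbp7*, with negative r for *Igfbp2*.

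*Igf1* with *Igfbp4* had the highest r outside this group after that of *Igf2r* with *Igfbp5*, but did not pass (r = 0.85, rho = 0.93, exact permutation p = 0.0129 and 0.00675, adjusted p = 0.0829 for r). Without WT 1 and 3, which had the lowest *Igf1* of the 7, r was 0.79. *Igf2r* with *Igfbp5* had r = 0.86 (rho = 0.64, exact permutation p = 0.0218 and 0.139, adjusted p = 0.123 for r), which rested on null 2 and WT 3, since r was -0.01 without them. *Igf1* with *Igf2* had r = -0.60 (rho = -0.68, exact permutation p = 0.157 and 0.110, adjusted p = 0.545 for r), and -0.64 without WT 1 and 3.

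**Figure D5:**
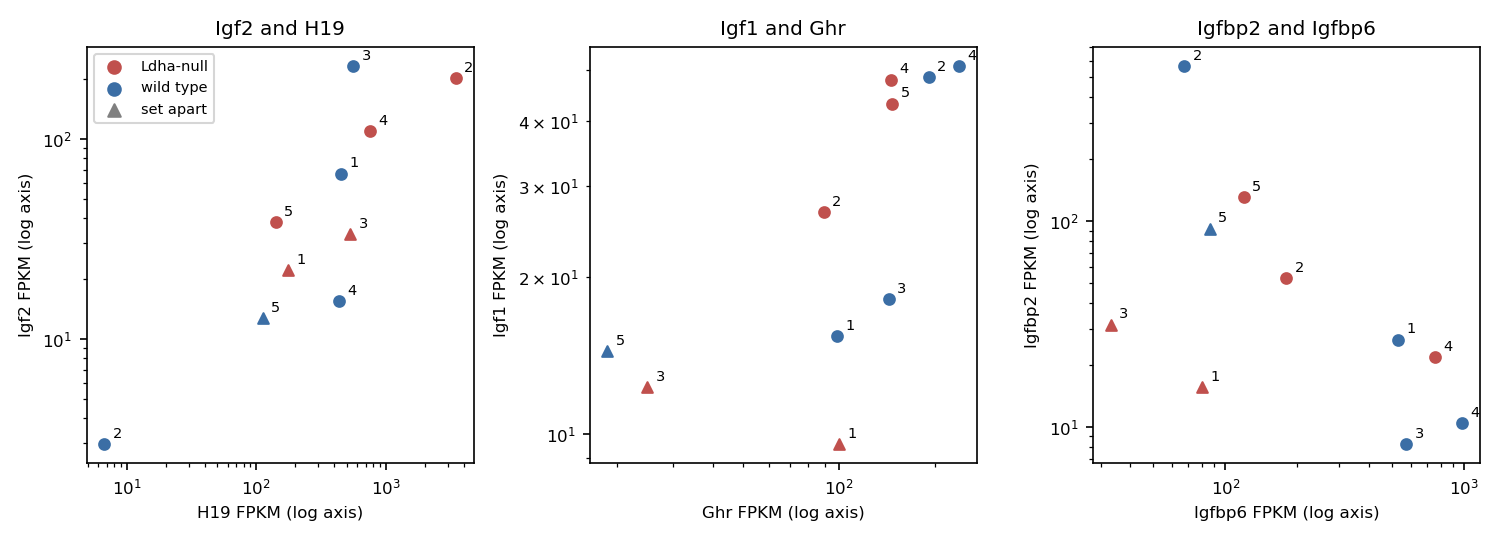
Levels of *Igf2* against *H19*, *Igf1* against *Ghr*, and *Igfbp2* against *Igfbp6* in the 10 tumors (FPKM, log axes), numbered by tumor, *Ldha*-null in red and wild type in blue, with triangles for the 3 tumors set apart. WT 2 is lowest for both *Igf2* (2.96) and *H19* (6.71), and has the highest *Igfbp2* (568) with low *Igfbp6* (67.2).

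Of the lists of related genes, 0 genes passed edgeR's test in any of them, beside 0% of all genes. Among 10 binding, carrier and protease genes, 5 could be tested, 1 above 0 and 4 below on the log2 scale, median -0.26. *Htra1*, a serine protease that cleaves binding proteins, averaged 353 ± 112 FPKM over the *Ldha*-null tumors and 396 ± 69.0 FPKM over the wild-type ones. *Adam12*, a metalloprotease, was at 11.5 ± 3.52 and 20.4 ± 4.31 FPKM. *Stc2*, which inhibits the protease pregnancy-associated plasma protein A, was at 7.72 ± 0.237 and 5.01 ± 0.775 FPKM, a log2 fold change of 0.87 (95% interval 0.12 to 1.62) with an adjusted p of 0.999 in edgeR, and 0.64 without null 1.

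Of 25 genes of insulin and IGF receptor signalling, 24 were tested, 14 positive and 10 negative, with a median of 0.04. Its most abundant members were *Akt1*, the kinase, at 233 ± 45.8 and 285 ± 22.1 FPKM, *Eif4ebp1*, a translation repressor under mTOR, at 267 ± 45.1 and 220 ± 23.0 FPKM, and *Pik3r2*, a regulatory PI3K subunit, at 115 ± 28.1 and 149 ± 20.5 FPKM in *Ldha*-null and wild-type tumors. The 9 genes of the growth hormone axis, which drives *Igf1* in liver and other tissues, had 3 positive and 6 negative values, median -0.21. *Ghr*, the growth hormone receptor, was at 101 ± 22.3 and 138 ± 37.8 FPKM, and the feedback inhibitors *Socs3* and *Socs2* at 101 ± 28.4 and 139 ± 18.3 FPKM and at 20.8 ± 9.52 and 22.6 ± 6.35 FPKM. The 4 tumors with *Igf1* over 40 FPKM had *Ghr* at 145 (null 4), 147 (null 5), 191 (WT 2) and 238 FPKM (WT 4). In the other 6, *Ghr* was at most 143 FPKM, reached in WT 3, where *Igf1* was at 18.1 FPKM. This narrow split held in FPKM only. After TMM scaling, *Ghr* in null 1, where *Igf1* was at 9.54 FPKM, lay above that in null 4 and null 5. The relation of *Ghr* to *Igf1* was not tested.

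Of 13 imprinted growth genes, 12 were tested, 9 positive and 3 negative, and their median log2 fold change of 0.90 moved to 0.34 when null 1 was left out and to 0.27 over the 7 tumors. *Meg3*, a maternally expressed noncoding RNA, was at 39.4 ± 16.9 FPKM over the *Ldha*-null tumors and 90.8 ± 57.7 FPKM over the wild-type ones, and *Mest*, a paternally expressed gene, at 51.4 ± 34.0 and 25.4 ± 8.08 FPKM (SEM, n = 5 each). Wide errors accompanied both means, as for *Igf2* and *H19*.

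Of the 9937 genes that averaged 5 FPKM or more, those with a pattern most like that of 3 members over the 7 tumors were found by Pearson r, as a description. For *Igfbp5* these were *Unc5b* (r = 0.99), *Dag1*, *Uba1*, *Trim35* and *Dctn5*, each of which was, of the 7 tumors, highest in null 2 and lowest in WT 3, as *Igfbp5* was. For *Igf1* they were *Adprh*, *Ezh1*, *Dusp22*, *Ugcg* and *Pxdc1*, and for *Igf2* *Nfx1*, *Thrap3*, *Uhrf1bp1*, *Tmem39b* and *Apol9a*. With 7 tumors and this many genes, high coefficients arise readily, and *H19* was not among the 5 for *Igf2*. In null 1, outside the 7, *Igfbp5* was at its highest of all tumors. There *Dag1* (23.9 FPKM) and *Trim35* (53.7 FPKM) were also at their highest. *Unc5b* (0.805 FPKM), *Uba1* (120 FPKM) and *Dctn5* (14.4 FPKM) were at their lowest in FPKM. After TMM scaling, on which r was computed, *Uba1* in null 1 lay above WT 2, 3 and 4 and so was not at its lowest.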

How the data were processed

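Messenger RNA of 10 tumors was enriched on oligo(dT) beads and sequenced on a HiSeq2500. Per the labels and the study's methods, the authors used CASAVA 1.8, aligned reads to mm10 with TopHat2 and obtained gene counts from HTSeq (union mode). The deposited counts are whole numbers per gene, and the FPKM values were computed by the authors from these counts and a gene length that for some genes differs from the listed one. The TopHat2 and HTSeq versions are not stated, and the library is not described as keeping strand.

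Counts were compared between genotypes in R 4.3.3 with edgeR 4.0.16, by the quasi-likelihood F-test with no covariate on all 10 tumors. Genes were kept by filterByExpr (minimum count 10, total 15), scaled by TMM, and p-values adjusted by Benjamini-Hochberg over the 15176 genes, with a threshold of 0.05. The biological coefficient of variation was 63.4%. The tests were tried on simulated data. Nothing states that the tumors shared or did not share litters, and p-values measure the spread between these samples. Pairs of members were compared by Pearson r and Spearman rho of log2 CPM (prior count 2) with exact permutation tests in Python 3.11.15. All 10 tumors were mapped by their labels. Part of the genotype of the tumor model is not reported here. The series text gives 5 mice per group, and the paper's text another number.

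The members and gene lists were chosen with earlier results of these data known. Genes named were the members, the 3 with the highest mean FPKM in each pathway list, any list gene that passed (0 did), and the 5 most like *Igfbp5*, *Igf1* and *Igf2*. Marker lists of cell types are given by their sums where these moved with a result. Alternatives were RLE factors, DESeq2 1.42.0 on the same genes, other count filters, a threshold of 0.1, the tumor number as a block, leaving out tumors, Spearman coefficients, log2(FPKM + 0.1) and the listed gene length.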

Additional observations from a re-analysis of the deposited data

Results flagged for a closer look

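Among 20 groups of 5 tumors (10 members by 2 genotypes), 3 held a tumor separated from the next by more than 0.71 of the whole range of its group (log2 CPM), where chance gives about 1 in 20, or 1. *Igf1r* was lowest in WT 2, with a gap of 0.878 of the range. *Igfbp7* was also lowest in WT 2, with a gap of 0.844. *Igf2r* was highest in null 2, with a gap of 0.809. WT 2 also held the lowest *Igf2* and the highest *Igfbp2* and *Igfbp4* of the 10 tumors.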

How the results depend on the processing

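Between the genotypes, the 9 members other than *Igfbp5* gave 0 calls under every alternative run. Over all genes the count was 0, except that DESeq2 called 1 (*G0s2*, named after its values were seen), and it stayed at 0 (0 to 0) with each tumor left out. Of 160 values of single members under an alternative, 150 kept their sign and 10 turned, 7 of those with 1 tumor left out. Log2 fold changes with 1 tumor left out ranged from -0.29 to 0.26 for *Igf1*, -0.24 to 1.78 for *Igf2*, -0.66 to -0.28 for *Igf1r*, -0.078 to 0.30 for *Igf2r*, -1.99 to 0.47 for *Igfbp2*, -0.70 to -0.23 for *Igfbp3*, -1.02 to -0.28 for *Igfbp4*, 2.09 to 4.15 for *Igfbp5*, -1.94 to -0.35 for *Igfbp6* and -0.86 to -0.35 for *Igfbp7*. *Igf1* was at 0.15 without null 1, null 3 and WT 5. Without null 4, *Igfbp6* and *Igfbp7* had an unadjusted p under 0.05, at -1.94 and -0.86, and neither passed edgeR's adjusted threshold. With the tumor number as a replicate block, 0 genes were called and 120 had an unadjusted p under 0.05, against 601 without it, and *Igf1* turned to 0.034 and *Igfbp2* to 0.19. The labels do not say that equal numbers mark pairs. Same-numbered tumors deviated from their group means with correlations of -0.045, 0.064, -0.274, 0.551 and -0.511, and 1 of 5 correlated best with its own number. With null 1, null 3 and WT 5 so far apart from the rest, these correlations cannot show whether same-numbered tumors shared a litter or batch. The 6 member pairs past the threshold became 4 on log2(FPKM + 0.1), 0 with Spearman coefficients, 0 without the 2 farthest tumors, where the smallest p leaves passing all but impossible, and 0 (0 to 0) with any 1 of the 7 tumors left out, which leaves 6 tumors and fewer possible pairings; 7 to 10 pairs then kept an unadjusted p under 0.05. *Igfbp4* led the family in 10 tumors by FPKM and in 8 by the listed length. With 5 tumors per group at this spread, a 2-fold fall in *Ldha*-null lay within the 95% intervals of 8 members besides *Igfbp5*. A 2-fold rise lay within those of *Igf2* and *Igfbp6* only. For some members far larger differences were also within error. The 95% intervals of the fold change reached down to 0.072 for *Igfbp2*, 0.14 for *Igfbp6* and 0.20 for *Igfbp4*, and up to 5.75 for *Igf2*.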
